A study of Mus musculus with 12 samples.

Results

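Of the 14098 genes in the deposited expression table, 10 genes of arginine and polyamine metabolism were chosen by symbol and followed in all libraries. They are the arginases Arg1 and Arg2, the inducible nitric oxide synthase Nos2, the cationic amino acid transporter Slc7a2, the arginine-making enzymes Ass1 and Asl, and the polyamine enzymes Odc1, Srm, Sms and Sat1. RNA came from bone marrow-derived macrophages (BMDM) of 8 to 10 week old C57Bl/6 mice of both sexes, of genotype WT or Camkk2-/- (here KO), the latter with the gene of the kinase CaMKK2 deleted. BMDM of each genotype were embedded in a soft collagen and hyaluronic acid hydrogel, in the same gel with IL-4, a cytokine that activates macrophages, or in a gel that was stiffened by UV crosslinking 24 h after embedding and cultured for a further 48 h. The 6 groups had 2 libraries each, 12 in all, and every library was poly-A selected after collagenase digestion of the gel. The stiff gel also differed from the soft one in its collagen content, photoinitiator and UV exposure, so a difference between gels cannot be told apart from these. The paper reports controls in which UV exposure or more collagen left the CD206 and MHC-II phenotype of BMDM unchanged. Those measured surface proteins, and no such control is among these libraries. The labels do not give the IL-4 dose.

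Arginine stands at a branch point in macrophages. Arginase splits it into urea and ornithine, which feeds polyamine and proline synthesis, whereas inducible nitric oxide synthase oxidises it to nitric oxide and citrulline. Arg1 is a widely used marker of mouse macrophages activated by IL-4 and Nos2 of those activated by microbial signals. From ornithine, ornithine decarboxylase (Odc1) makes putrescine, which spermidine synthase (Srm) and spermine synthase (for Sms) extend, while spermidine/spermine acetyltransferase (Sat1) starts the way back.

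Values are TPM, a unit that corrects for gene length and sums to 1000000 in every library, so that levels of different genes can be compared. Of the 12 libraries, 3 went against their genotype label at Camkk2: WT soft 2 had 11.7 TPM, and KO soft 1 and KO stiff 1 had 46.6 and 37.7 TPM, whereas the other WT libraries lay at 23.3 to 44.2 TPM and the other KO libraries at 8.54 to 11.5 TPM. Each was kept in its labelled group. The SD of log2 differences over 4890 genes was 0.121 between WT stiff 2 and WT soft+IL-4 2, and 0.123 between WT soft 2 and KO soft 2, smaller than in any pair of libraries of 1 group (0.207 to 0.573, the largest being the WT stiff pair). The share of genes listed at 0 was 10.7 to 13.4% among replicates 1 and 5.90 to 7.54% among replicates 2. All 7 macrophage markers were detected, and their summed level was 50741 to 57172 TPM in the soft groups, 23417 to 25404 TPM with IL-4, 23207 to 24558 TPM in WT stiff and 45377 to 47959 TPM in KO stiff. Most of that sum was 1 gene, Lyz2 (45849 to 51543 TPM in the soft groups and 19076 to 21251 TPM with IL-4 and in WT stiff). By the test described below, 4 of the 7 were lower in WT with IL-4, beside 2.17% of all tested genes called lower. In WT stiff 2 of the 7 were lower, beside 3.97% of all tested genes called in either direction. Cd68 stayed at 1813 to 2123 TPM in all libraries. Markers of 8 other cell types were low, with S100a8 at up to 19.9 TPM. The summed dendritic cell markers were at 3.10 to 3.73 TPM in WT soft, 9.94 to 11.9 TPM with IL-4 and 11.4 to 19.9 TPM in WT stiff. In the same KO groups they lay at 3.63 to 8.22 TPM, 8.34 to 10.4 TPM and 5.94 to 7.56 TPM, with KO stiff inside the KO soft range. Most of the sum was Ccr7, higher by 1.5 on the log2 scale in WT with IL-4 (limma adjusted p = 0.0238) and by 1.99 in WT stiff (adjusted p = 0.00670). Flt3 and Zbtb46 stayed below 2 TPM. The part of these markers in the members' values was not tested. In bulk RNA, fewer cells of a kind and less RNA per cell cannot be told apart.

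The coding sequence of Ass1, which joins citrulline to aspartate, has 1239 bases, and 1233 of them are the same in Gm5424, a processed pseudogene that the table lists as a gene of its own (GENCODE vM21). Ass1 lies on the + strand at chr2:31470207-31520672 and Gm5424 on the + strand at chr10:62071123-62072362 (GRCm38, the build mm10). The longest run of shared bases is 398. Coding bases 371 to 520 of Ass1 and the matching stretch of Gm5424 are shown because they hold 3 of the 6 mismatches, which are in capitals:

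Ass1: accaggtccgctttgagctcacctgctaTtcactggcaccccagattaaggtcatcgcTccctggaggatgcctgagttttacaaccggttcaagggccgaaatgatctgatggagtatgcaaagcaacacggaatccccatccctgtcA

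Gm5424: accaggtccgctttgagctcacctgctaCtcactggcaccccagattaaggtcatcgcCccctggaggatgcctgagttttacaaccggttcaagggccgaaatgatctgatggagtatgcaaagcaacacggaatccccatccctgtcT

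Reads from the rest of such a stretch have no base that assigns them to one gene or the other. Ass1 was at 28.2 and 13.4 TPM in WT soft, 25.4 and 21.8 TPM in WT soft+IL-4, 2.34 and 23.8 TPM in WT stiff, 16.1 and 22.5 TPM in KO soft, 26.6 and 18.9 TPM with IL-4 in KO, and 25.1 and 24.8 TPM in KO stiff. Gm5424 was at 26.5 TPM in WT stiff 1, 10.9 TPM in WT soft 2, 8.26 TPM in the second KO soft+IL-4 library and 13 TPM in the first KO soft one, and was listed at 0 in the other 8 libraries. The 4 libraries with Gm5424 were those with the 4 lowest Ass1 values. Summed, the pair ranged from 21.8 to 29.1 TPM, a 1.33-fold range, where Ass1 alone ranged 12.1-fold. With Ass1 alone, limma estimated WT stiff against WT soft at -1.17 on the log2 scale (SE 0.73, Benjamini-Hochberg adjusted p = 0.382). With the sum it gave 0.00 (SE 0.15, 95% confidence interval -0.33 to 0.33, adjusted p = 0.997), a fit chosen after the data were seen. The low Ass1 of WT stiff 1 is therefore not a low sum, and over the 12 comparisons neither Ass1 nor the sum passed the test. Without WT stiff 2, so that WT stiff 1 alone stood for its group, Ass1 alone was at -2.62.

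**Figure D1:**
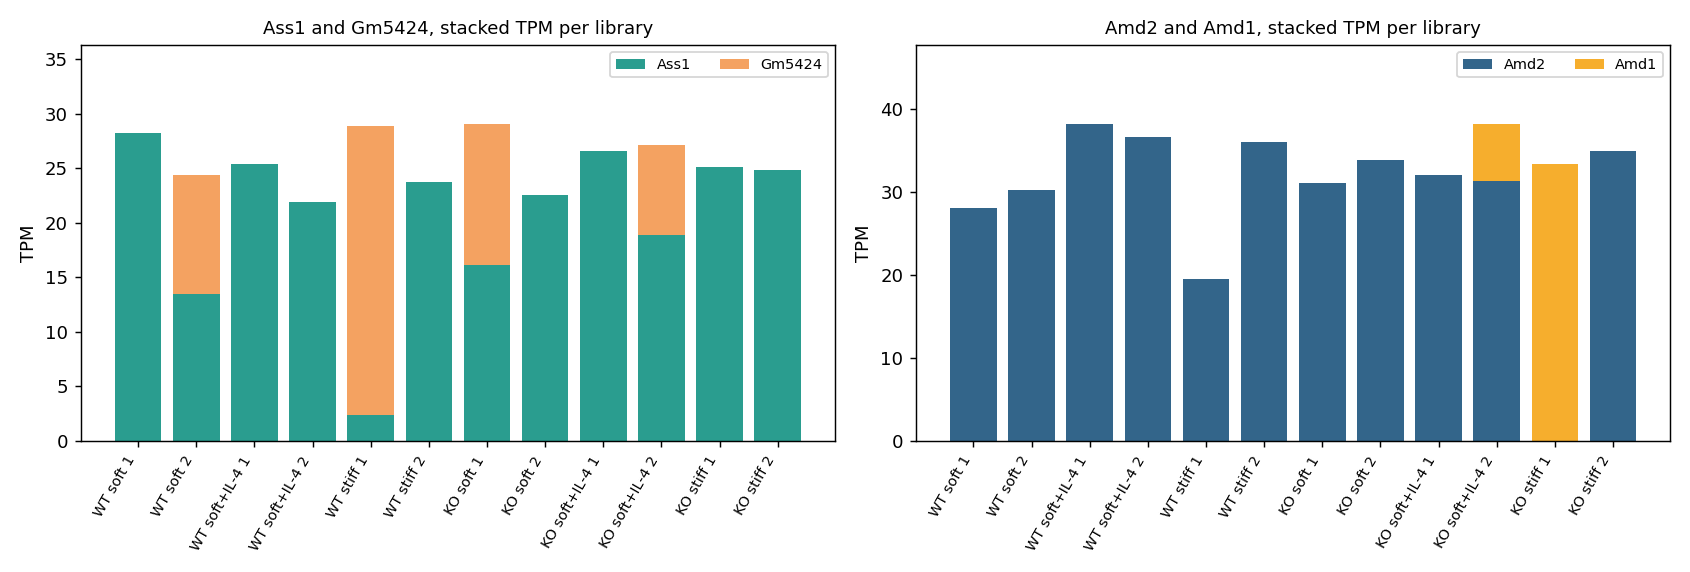
Stacked TPM of Ass1 and Gm5424 (left) and of Amd2 and Amd1 (right) in the 12 libraries, on linear axes from 0. In WT stiff 1 nearly the whole Ass1 bar is taken by Gm5424, at 26.5 against 2.34 TPM, while the stacked height, 28.8 TPM, lies within the range of the other libraries. In KO stiff 1 the level of Amd2, listed at 0, is taken by Amd1 at 33.4 TPM.

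Asl, the enzyme that releases arginine from the product of Ass1, was the steadiest of the 10 genes. It lay between 52.6 TPM in WT stiff 1 and 66.4 TPM in WT soft 1, a 1.26-fold range, and passed the test in none of the comparisons. Its largest log2 difference among the comparisons of IL-4 or stiff with soft gels was -0.19 (SE 0.10), in WT stiff.

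**Figure D2:**
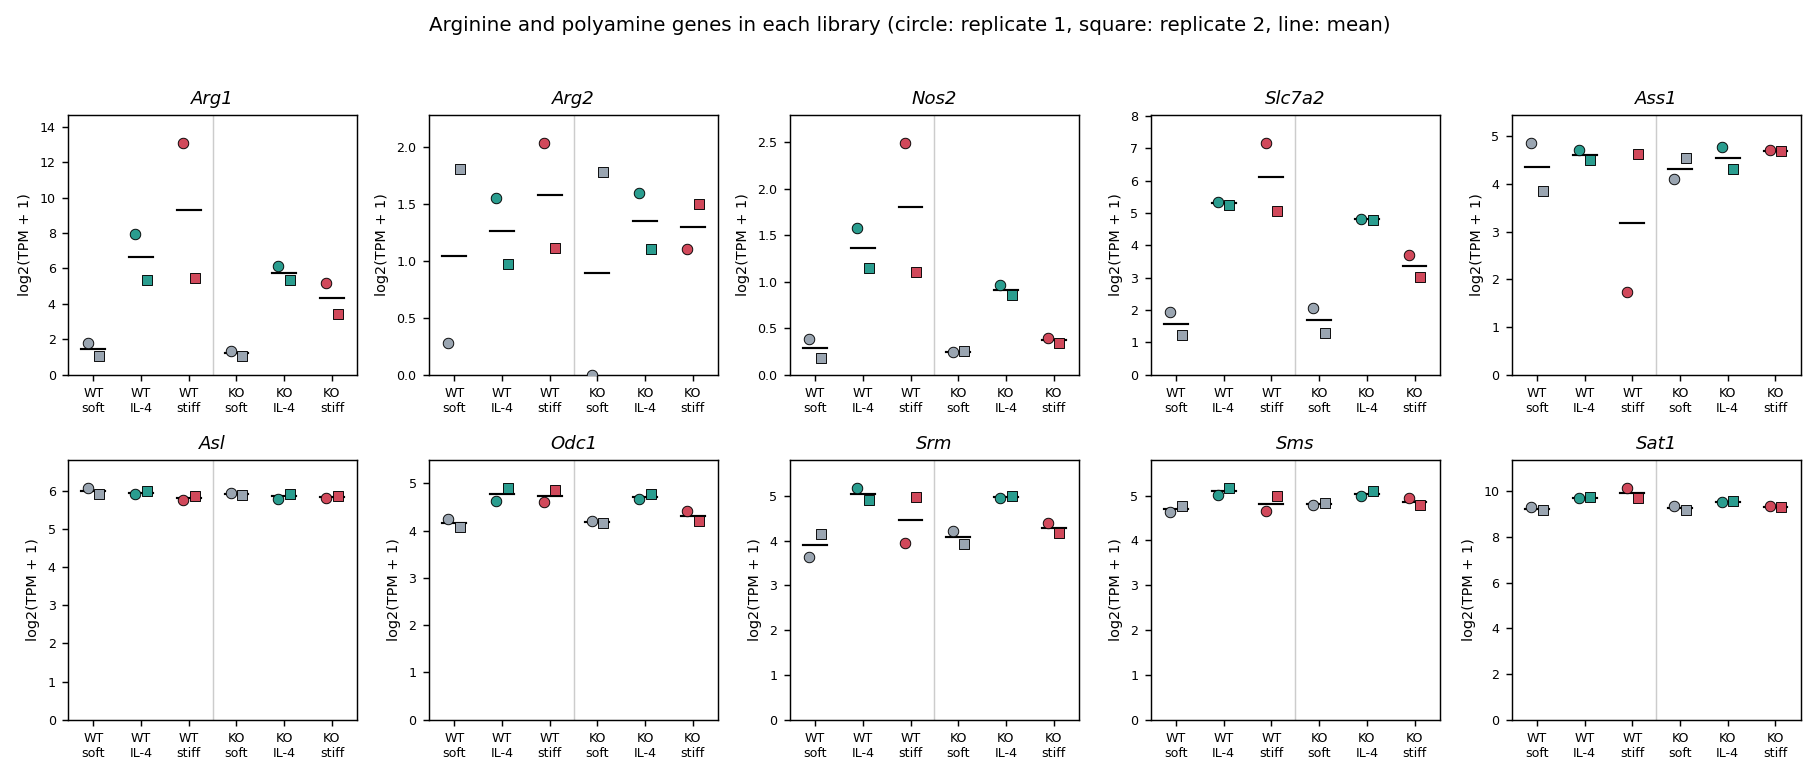
log2(TPM + 1) of the 10 genes in the 12 libraries. Circles are replicate 1, squares replicate 2 and lines the mean of the 2 values. The vertical scale starts at 0 and differs between panels. WT stiff 1 stands apart in Arg1, Nos2, Slc7a2 and Ass1, while Asl is level in all 6 groups.

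The IL-4 comparison asks how the soft+IL-4 group differed from the soft group of the same genotype. A gene was called differentially expressed (DE) where limma, with Benjamini-Hochberg adjustment over the 11194 genes tested, gave an adjusted p under 0.05 and a change of 1 or more in either direction on the log2(TPM + 1) scale. In WT BMDM, 2 of the 10 genes were DE genes, both higher with IL-4, where 3.76% of all tested genes were called, 1.59% higher and 2.17% lower. In 7 of the 10 the IL-4 libraries did not overlap the soft ones, as in 61.3% of all genes. The median log2 fold change was 0.55 over the 10 genes and -0.05 over all genes. In KO BMDM 1 of the 10 was called, and it was higher, beside 3.65% of all genes (1.56% higher and 2.09% lower), with medians of 0.50 and -0.05. There too 7 of the 10 did not overlap, beside 60.4% of all genes. With both genotypes averaged 3 were called, beside 4.35%, and medians were 0.47 and -0.05.

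Slc7a2 (chr8:40862396-40922308, + strand), which carries arginine into activated macrophages, was at 2.84 and 1.33 TPM in WT soft, 39.5 and 37.1 TPM in WT with IL-4, 3.20 and 1.45 TPM in KO soft, and with IL-4 in KO at 27.4 and 26.5 TPM. In the soft gel all 4 libraries with IL-4 lay far above all 4 without it. The log2 fold change was 3.72 (SE 0.58, adjusted p = 0.00389 in limma) in WT and 3.12 (SE 0.58, adjusted p = 0.00882) in KO. In KO the call was lost without KO soft+IL-4 1, KO soft+IL-4 2 or KO soft 2, at adjusted p of 0.0705, 0.0615 and 0.0746 in limma, while the log2 fold change stayed between 2.73 and 3.51.

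Arg1 (chr10:24915221-24927484, - strand), the cytosolic arginase, was at 2.43 and 1.11 TPM in WT soft, 242 and 40.3 TPM in WT with IL-4, 1.53 and 1.11 TPM in KO soft, and with IL-4 in KO at 70.3 and 39.1 TPM. In the soft gel every library with IL-4 was above every one without, but the WT pair with IL-4 was far apart. In either genotype alone the spread left Arg1 short of the test, with estimates of 5.22 (SE 1.93, adjusted p = 0.125 in limma) in WT and 4.53 (SE 1.93, adjusted p = 0.187) in KO. Averaged over the genotypes it rose by 4.87 (SE 1.37, adjusted p = 0.0303 in limma). That call was lost when any of the 8 libraries but WT soft+IL-4 2 was left out, at adjusted p of 0.0698 to 0.112 in limma. It was also lost with no filter on low values (adjusted p = 0.0507), with the robust variance estimate (adjusted p = 0.0620) and without the 3 libraries contrary at Camkk2 (adjusted p = 0.239). The 12 libraries share 1 estimate of the spread, and the SE of Arg1 fell from 1.93 to 0.96 without WT stiff 1. Fitted on the 2 groups compared alone, Arg1 had an adjusted p of 0.00932 in WT and 0.000999 in KO.

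Srm (chr4:148591503-148594993, + strand) was at 11.4 and 16.8 TPM in WT soft, 35.3 and 28.8 TPM in WT with IL-4, 17.7 and 14.3 TPM in KO soft, and with IL-4 in KO at 30.0 and 31.1 TPM. The libraries with IL-4 lay at about the same level in both genotypes and above all soft ones. On the log2 scale Srm differed by 1.15 (SE 0.30, adjusted p = 0.0404 in limma) in WT, 0.90 (SE 0.30, adjusted p = 0.0962) in KO, and 1.02 (SE 0.21, adjusted p = 0.00771) over both. The WT call was lost without any 1 of its 4 libraries (limma adjusted p from 0.0744 to 0.236) and with the replicate number as a block (adjusted p = 0.0505). The averaged call was lost without WT soft 1, WT soft+IL-4 1 or KO soft 2, through log2 fold changes of 0.89, 0.95 and 0.95 that fell under the minimum of 1.

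The other polyamine enzymes moved less. Odc1 was at 17.8 and 15.8 TPM in WT soft, 23.8 and 28.9 TPM in WT with IL-4, 17.4 and 16.8 TPM in KO soft, and with IL-4 in KO at 24.4 and 26.3 TPM, again with no overlap. Its log2 fold changes of 0.62 in WT (SE 0.14, adjusted p = 0.0224 in limma) and 0.54 in KO (SE 0.14, adjusted p = 0.0398) passed the p threshold but not the fold minimum. Sms gave 0.32 (SE 0.09, adjusted p = 0.0331 in limma) and Sat1 0.37 (SE 0.10, adjusted p = 0.0224) over both genotypes, both under the fold minimum. Sat1 was the most abundant member in 11 of the 12 libraries, at 577 to 1137 TPM, and was 28.6 to 49.0 times the level of Odc1 in the same library.

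The members at the low end were Arg2 and Nos2. Arg2, the mitochondrial arginase, ran from a value listed at 0 in KO soft 1 to 3.09 TPM in WT stiff 1. In the soft groups it was at 0.213 and 2.49 TPM in WT and at 0 and 2.43 TPM in KO, with replicate 2 the higher in both genotypes. The spread within soft groups thus covered most of its range, and Arg2 passed the test in no comparison. Nos2 (chr11:78920787-78960254, + strand) was at 0.305 and 0.134 TPM in WT soft, 1.99 and 1.22 TPM in WT with IL-4, 0.181 and 0.190 TPM in KO soft, and with IL-4 in KO at 0.954 and 0.817 TPM. Higher with IL-4 in every library, it stayed below 2 TPM there. On the log2 scale the difference was 1.08 (SE 0.40, adjusted p = 0.125 in limma) in WT and 0.67 (SE 0.40, adjusted p = 0.357) in KO. The log2 ratio of Arg1 to Nos2, with 1 TPM added to each, was 0.83 to 1.4 in the 4 soft libraries and 4.22 to 6.35 in the 4 with IL-4.

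The stiff comparison asks how BMDM in the stiffened gel differed from those in the soft gel, and shares its soft libraries with the IL-4 comparison. In WT BMDM 3 of the 10 genes were DE genes, all higher in the stiff gel, beside 3.97% of all tested genes (1.73% higher), with a median log2 fold change of 0.57 over the 10 and 0.02 over all genes. The stiff libraries did not overlap the soft ones in 6 of the 10, beside 42.8% of all genes. Averaged over both genotypes 2 were called, Arg1 and Slc7a2, beside 1.35% of all genes. The 2 WT stiff libraries stood far apart, and each value is therefore given for both.

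Arg1 was at 8850 TPM in WT stiff 1 and 42.6 TPM in WT stiff 2. In WT stiff 1 it made up 0.885% of all transcripts and 86.3% of the summed TPM of the 10 genes, against 0.153 to 18.7% of that sum in the other 11 libraries. Of the 11194 genes tested, no other differed as much between the 2 WT stiff libraries. Both values nevertheless lay above both WT soft values, and the log2 fold change was 7.85 (SE 1.93, 95% confidence interval 3.50 to 12.2, adjusted p = 0.0322 in limma). Without WT stiff 1 it was 4.02, and without WT stiff 2 it was 11.7, each with 1 WT stiff library left in the fit. The call was lost without WT soft 1 or WT soft 2, at adjusted p of 0.124 and 0.155 in limma, with only the groups compared (adjusted p = 0.325), with no filter on low values (adjusted p = 0.0551) and with the robust variance estimate (adjusted p = 0.0687).

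Slc7a2 followed the same order, at 144 TPM in WT stiff 1 and 32.6 TPM in WT stiff 2. Both were more than 10 times the higher WT soft value of 2.84 TPM, and the log2 fold change was 4.54 (SE 0.58, adjusted p = 0.00132 in limma). It was 3.49 without WT stiff 1. The call held without each of the 4 WT soft and stiff libraries in turn, in fits that leave 1 library in a group. It was lost without the 3 libraries contrary at Camkk2 (4.18) and with only the groups compared (adjusted p = 0.117 in limma).

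Nos2 was at 4.64 TPM in WT stiff 1 and 1.15 TPM in WT stiff 2, and rose by 1.52 (SE 0.40, adjusted p = 0.0422 in limma). The call was lost without WT stiff 1, at a log2 fold change of 0.82 (adjusted p = 0.102), and without WT soft 1 or WT soft 2 (adjusted p = 0.139 and 0.188). Arg1 and Nos2, enzymes that compete for arginine, were thus both at their highest in WT stiff 1, where the log2 ratio of Arg1 to Nos2 was 10.6, against 4.34 in WT stiff 2.

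**Figure D3:**
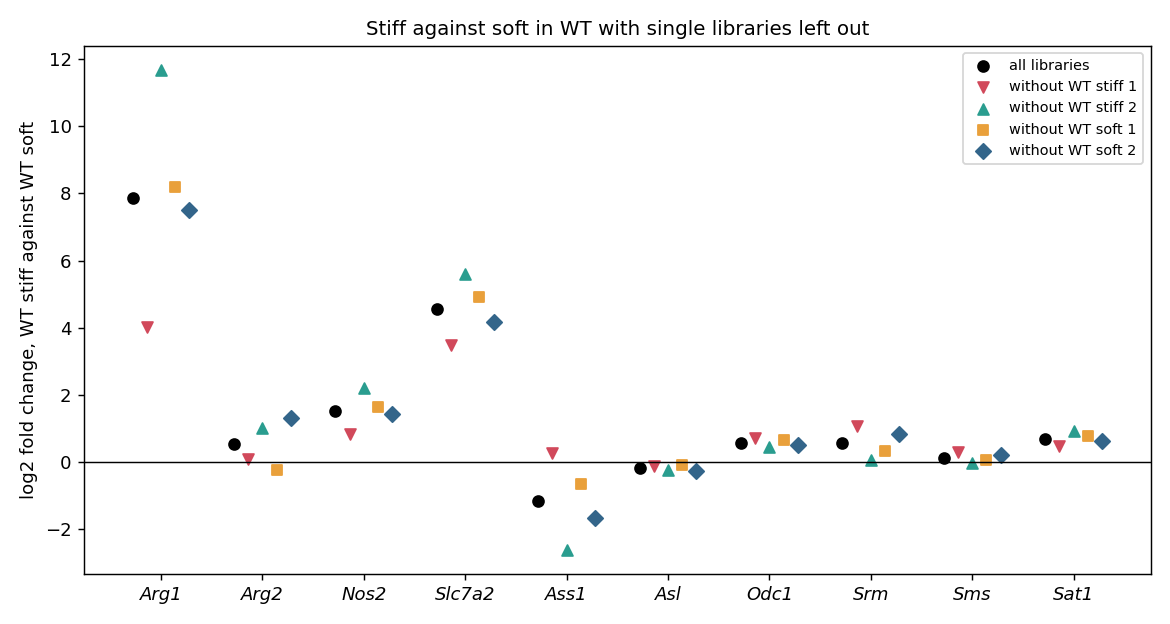
log2 fold change of the 10 genes in WT stiff against WT soft, with all libraries (black) and with 1 library left out. Arg1 runs from 4.02 without WT stiff 1 to 11.7 without WT stiff 2, Slc7a2 from 3.49 to 5.60, and Ass1 from 0.27 to -2.62.

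Among the polyamine enzymes in the stiff gel, Sat1 was at 1137 and 838 TPM in WT stiff against 634 and 577 TPM in WT soft, and Odc1 at 23.2 and 27.9 TPM. Neither overlapped WT soft. Their log2 fold changes of 0.69 (SE 0.14, adjusted p = 0.0120 in limma) and 0.57 (SE 0.14, adjusted p = 0.0313) were under the fold minimum. Srm differed between the pair, at 14.4 TPM in WT stiff 1, within the WT soft range, and 30.4 TPM in WT stiff 2. Its log2 fold change of 0.57 (SE 0.30, adjusted p = 0.300 in limma) became 1.08 without WT stiff 1, with WT stiff 2 alone in its group. So in WT stiff 1 the highest Arg1, Slc7a2, Nos2 and Sat1 values of the series stood beside a level of Srm like that of soft gels.

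In KO BMDM none of the 10 genes was a DE gene in stiff against soft by limma, beside 0.0447% of all genes, and 1 of the 10, beside 295 of all 11194 genes, had an unadjusted p under 0.05. In 5 of the 10 the groups did not overlap, beside 32.3% of all genes. The gene with an unadjusted p under 0.05 was Slc7a2, at 12 and 7.15 TPM in KO stiff against 3.20 and 1.45 TPM in KO soft, where limma estimated 1.68 on the log2 scale (SE 0.58, adjusted p = 1). Arg1 was at 35.3 and 9.84 TPM, above both KO soft values, and differed by 3.10 (SE 1.93, adjusted p = 1 in limma), with a 95% confidence interval of -1.25 to 7.45. Nos2 was at 0.315 and 0.266 TPM, Odc1 at 20.3 and 17.3 TPM, Srm at 20.1 and 17.0 TPM and Sat1 at 651 and 633 TPM, and the largest of their log2 differences from KO soft was 0.20, for Srm. KO stiff 1, one of the libraries contrary at Camkk2, held the higher value of Arg1 and Slc7a2.

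**Figure D4:**
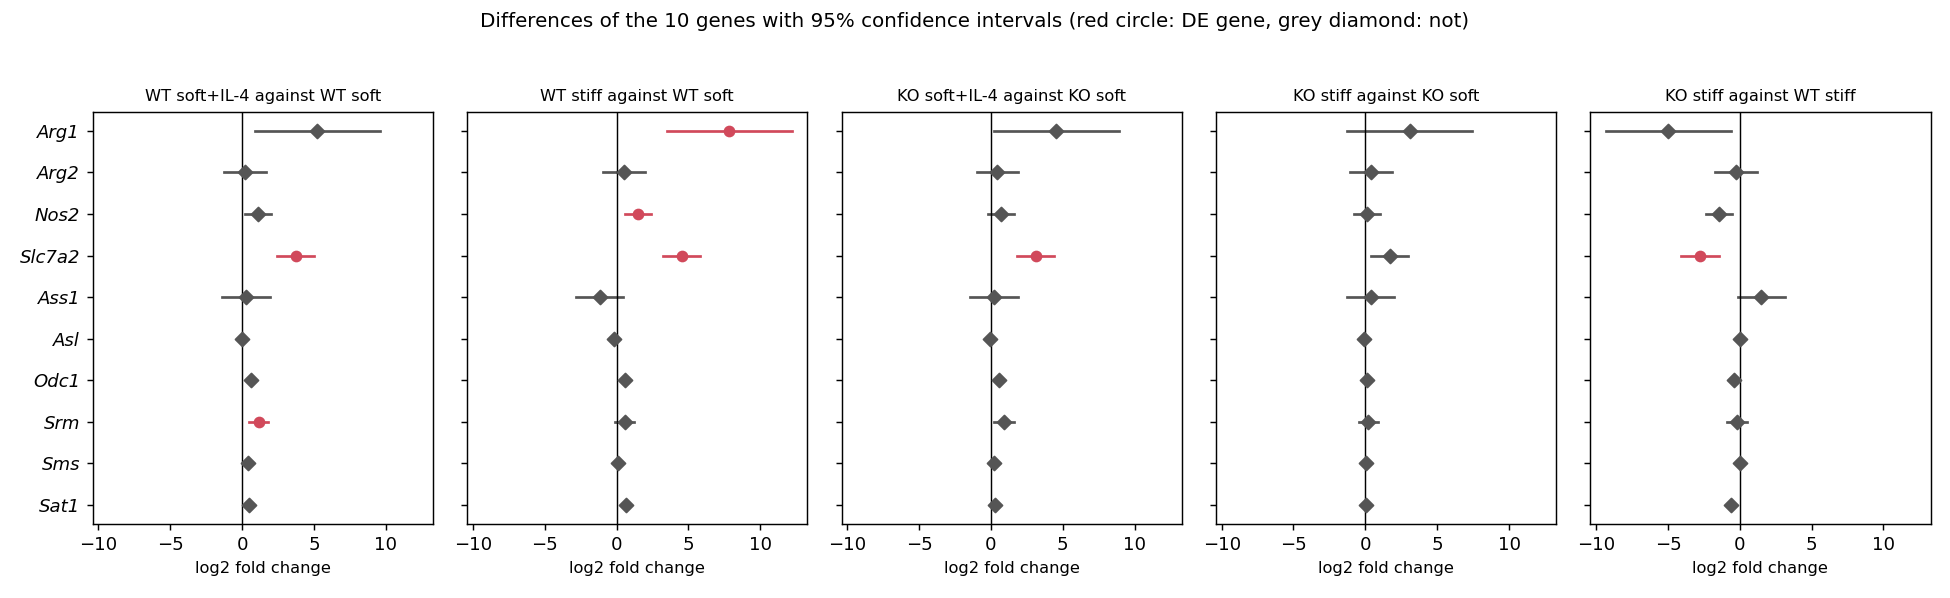
log2 fold change with its 95% confidence interval for the 10 genes in 5 comparisons, from limma over all 12 libraries. Red circles are DE genes and grey diamonds are not. Slc7a2 is called in 4 of the 5 panels, and the interval of Arg1 is the widest in each.

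Compared directly, KO stiff had less Slc7a2 than WT stiff, with a log2 difference of -2.76 (SE 0.58, adjusted p = 0.0273 in limma). It was the 1 DE gene of the 10, beside 1.98% of all genes. In 6 of the 10 the groups did not overlap, beside 39.1% of all genes. For Slc7a2 both KO stiff values (12 and 7.15 TPM) were below those of WT stiff (144 and 32.6 TPM). Without WT stiff 1 the log2 fold change was -1.70, and the call was lost without KO stiff 1 or KO stiff 2. Sat1 was lower by -0.60 (SE 0.14, adjusted p = 0.0365 in limma), under the fold minimum. Arg1 differed by -4.97 (SE 1.93, adjusted p = 0.211 in limma), by -1.14 without WT stiff 1 and by -8.80 without WT stiff 2. A fit with 1 WT stiff library holds no spread of that group. The median over the 10 genes was -0.35, and over all genes -0.02.

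Whether the response to stiffening itself differed between genotypes is tested by the interaction. By limma 0 of the 10 genes passed, beside 0.670% of all genes, and 4 of the 10, beside 1219 of all 11194 genes, had an unadjusted p under 0.05: Slc7a2 at -2.86 (SE 0.82, adjusted p = 0.182), Sat1 at -0.64 (SE 0.19, adjusted p = 0.206), Nos2 at -1.39 (SE 0.57, adjusted p = 0.403) and Odc1 at -0.45 (SE 0.20, adjusted p = 0.456). Without WT stiff 2, so that WT stiff 1 alone stood for its group, 4 genes passed, and without any other library 0 did. For IL-4 the interaction had 0 members called and 0 at an unadjusted p under 0.05 in limma, as had KO against WT in the soft gel and with IL-4, where no gene of the table was called. The Slc7a2 interaction with IL-4 was -0.59 (95% confidence interval -2.43 to 1.24). By limma 130 genes in the soft gel, 233 with IL-4 and 165 for the interaction had an unadjusted p under 0.05.

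WT stiff was also set against WT soft+IL-4. By limma 0 of the 10 genes and 0 of all 11194 were called, with 0 members and 557 genes at an unadjusted p under 0.05. WT stiff 2 and WT soft+IL-4 2 were close in every member, by at most 0.19 on the log2(TPM + 1) scale (for Sms), with Arg1 at 42.6 and 40.3 TPM, Slc7a2 at 32.6 and 37.1 TPM and Nos2 at 1.15 and 1.22 TPM. No gene above 0 had the same value in both. WT stiff 1 was not close to either IL-4 library. Without WT stiff 2, so that WT stiff 1 alone stood for its group, Arg1 was higher by 6.46, Slc7a2 by 1.88 and Nos2 by 1.13. Srm was then at -1.10 and Ass1 at -2.88. The sum of Ass1 with Gm5424 passed the test in no comparison with all libraries. Without the 3 libraries whose Camkk2 level goes against the label, the counts of 2, 3, 1 and 1 called members in WT IL-4, WT stiff, KO IL-4 and KO against WT in stiff gels all became 0. The counts over all genes fell too, from 421 to 106, 444 to 131, 409 to 181 and 222 to 20.

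Around the 10 genes, 55 others of arginine and polyamine metabolism were counted, of which 50 were in the table and 45 tested. In WT BMDM with IL-4, 1 of the 45 was lower and 0 higher, beside 3.76% of all genes called, and in KO 1 was lower and 1 higher, beside 3.65%. In WT stiff 2 were higher and 0 lower, beside 3.97% of all genes. In KO stiff 0 of 45 were called by limma, beside 0.0447%, with 1 of the 45 and 295 of all 11194 genes at an unadjusted p under 0.05. These counts are near the shares over all genes. Their median log2 fold changes were 0.08, 0.01, 0.06 and 0.02 in that order.

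Slc7a7, which exports cationic amino acids together with its heavy chain, fell with IL-4 as Slc7a2 rose. It was at 8.27 and 11.9 TPM in WT soft against 3.48 and 4.76 TPM in WT with IL-4. In KO it was at 11.3 and 13 TPM against 3.31 and 5.27 TPM. The groups did not overlap, and the log2 fold changes were -1.11 (SE 0.23, adjusted p = 0.0152 in limma) and -1.33 (SE 0.23, adjusted p = 0.00641). The WT call was lost without WT soft 2 (-0.87) or WT soft+IL-4 1 (-0.93), and the KO call without KO soft 2 (-1.24, adjusted p = 0.0551 in limma) or KO soft+IL-4 1 (-1.06, adjusted p = 0.0670). Slc7a1, the housekeeping arginine transporter, changed by 0.61 (adjusted p = 0.0238 in limma) and 0.73 (adjusted p = 0.0103), under the fold minimum.

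Gatm, which takes arginine into creatine synthesis, was at 19.1 and 36 TPM in WT soft, 73.9 and 75.8 TPM in WT with IL-4, 206 and 79.3 TPM in WT stiff, 16.7 and 35.4 TPM in KO soft, 87.2 and 82.7 TPM with IL-4 in KO, and 33.7 and 45.3 TPM in KO stiff. It rose in WT stiff by 2.24 (SE 0.46, adjusted p = 0.0149 in limma) and in KO with IL-4 by 1.76 (SE 0.46, adjusted p = 0.0430), and in WT with IL-4 its 1.48 missed the threshold (adjusted p = 0.0748). The stiff call was lost without WT soft 1 (1.80, adjusted p = 0.118 in limma), and the KO call without KO soft 1, KO soft+IL-4 1 or KO soft+IL-4 2 (adjusted p from 0.162 to 0.251). Azin2, an antizyme inhibitor, which relieves the inhibition of ornithine decarboxylase, was at 42.1 TPM in WT stiff 1 and 4.96 TPM in WT stiff 2, against 1.16 and 1.29 TPM in WT soft, a rise of 2.85 (SE 0.70, adjusted p = 0.0313 in limma). Without WT stiff 1 it was 1.42 and without WT stiff 2 it was 4.28, each with 1 WT stiff library left. The call was lost without WT soft 1 or WT soft 2.

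**Figure D5:**
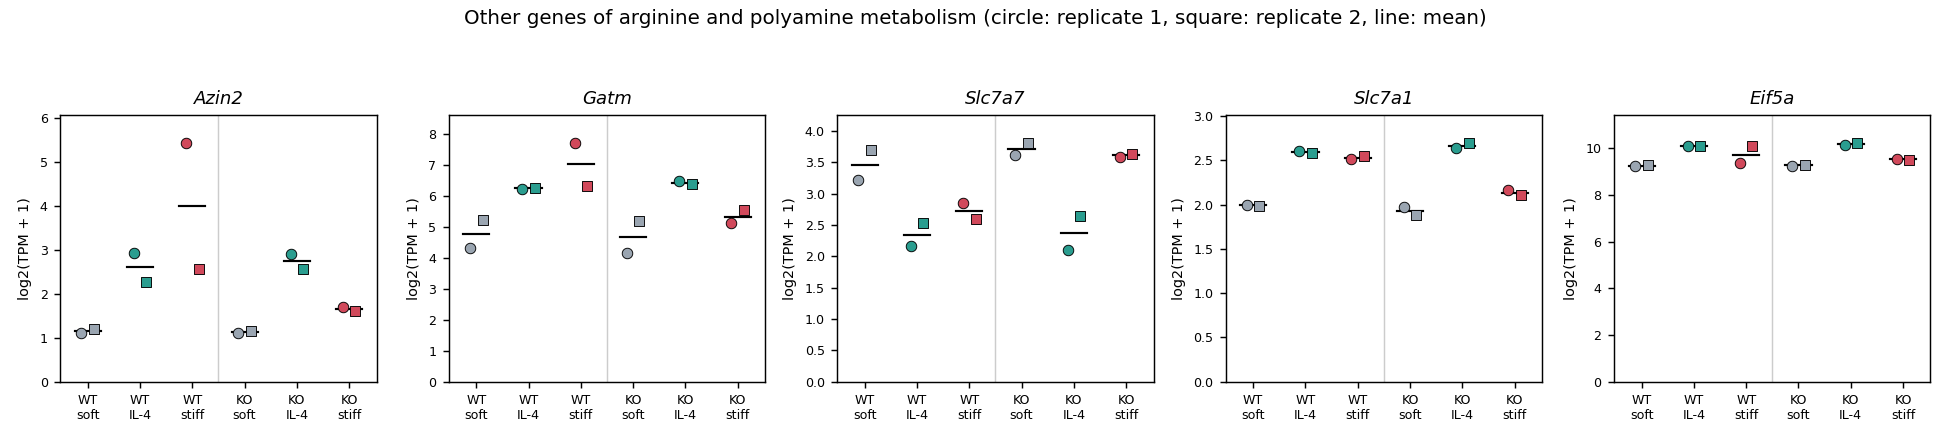
log2(TPM + 1) of 5 further genes of the pathway in the 12 libraries, with circles for replicate 1, squares for replicate 2 and lines for their mean, on vertical scales that start at 0. Azin2 and Gatm are highest in WT stiff 1, Slc7a7 is lower in all 4 libraries with IL-4 than in the 4 soft ones, and Eif5a is higher in them.

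Eif5a, the translation factor that carries hypusine, an amino acid made from spermidine, was at 607 to 625 TPM in the 4 soft libraries and at 1083 to 1192 TPM in the 4 with IL-4. In WT the log2 difference was 0.84 (SE 0.19, adjusted p = 0.0213 in limma) and in KO 0.92 (SE 0.19, adjusted p = 0.0152), both under the fold minimum. The WT stiff pair was split here too, with 653 TPM in WT stiff 1, near the soft level, and 1101 TPM in WT stiff 2.

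S-adenosylmethionine decarboxylase, which supplies the aminopropyl group for Srm and Sms, is listed under near-identical genes, Amd1 and Amd2, and each alone is uncertain. Amd2 was at 19.6 to 38.2 TPM in 11 libraries and listed at 0 in KO stiff 1, where Amd1 was at 33.4 TPM. Amd1 was otherwise above 0 only in KO soft+IL-4 2, at 6.86 TPM. The sum ran from 19.6 TPM in WT stiff 1 to 38.2 TPM in WT soft+IL-4 1 and passed the test in none of the 12 comparisons. Processed pseudogenes with at least 90% identity over at least 200 bases also exist for Odc1, Sat1, Sms and Srm in GENCODE, and they are not listed in the table, so that the share of reads they took is unknown. AW146154, a transcript 92.1% identical to Odc1 over 921 bases, is listed and stayed between 1.63 and 3.99 TPM. Slc7a2 shares 475 bases at 100% identity with Gm26584, an overlapping noncoding gene on the opposite strand that is not listed. Arg2 shares 285 bases at 100% identity with Vti1b, an overlapping gene on the opposite strand that is listed. The share of reads this concerns is unknown too.

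The genes most like each member over the 12 libraries, by Pearson's r of log2(TPM + 1), are given as description, since all points share the libraries and WT stiff 1 weighs heavily. For Arg1 they were Azin2 (0.97), Aldoa (0.97), Hnrnpll (0.97), Ctsl (0.96) and Hk2 (0.96), and without WT stiff 1 these lay at 0.92 to 0.95. Aldoa and Hk2 are glycolytic enzymes, and Hk2 was at 60.7 TPM in WT stiff 1 against 13.2 to 23.6 TPM elsewhere. For Slc7a2 they were Rnase2a, Chil3 and Chil4, for Nos2 Ezr, Fem1c and Ctsl, for Sat1 Ramp3, Atf5 and Dhrs9, and for Odc1 Atp6v0d2, Rrp8 and Ppia. For Srm they were Ndufa13, Nolc1 and Ybx3, for Sms Nol6, Usp14 and Sf3b4, for Arg2 Eef2k, Aptx and Fam120c, and for Asl, with the lowest values (0.85 to 0.88), Cd59a, Mpc1 and Rdh11. Those of Ass1 were Dnajc15, Rnf128 and Hsd17b7, at 0.96 to 0.98 with WT stiff 1 and 0.64 to 0.83 without it.

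Promoter sequences from RefSeq (GRCm38.p6) were held for 4 of the 10 genes, Ass1, Odc1, Sat1 and Sms. The 250 bases before the start are shown for Odc1, Sat1 and Sms (at both of its start sites), whose changes with IL-4 were under the fold minimum, and for Ass1, whose sum with Gm5424 was level. Odc1 is read on the + strand at chr12:17544623-17544872, Sat1 on the - strand at chrX:155216450-155216699, Sms on the - strand at chrX:157492288-157492537 (start 1) and chrX:157491369-157491618 (start 2), and Ass1 on the + strand at chr2:31470020-31470269. The starts are those of RefSeq. The Ass1 and Odc1 windows run past the GENCODE starts of these genes, at 31470207 and 17544794. Capitals mark matches to the motifs searched.

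Odc1: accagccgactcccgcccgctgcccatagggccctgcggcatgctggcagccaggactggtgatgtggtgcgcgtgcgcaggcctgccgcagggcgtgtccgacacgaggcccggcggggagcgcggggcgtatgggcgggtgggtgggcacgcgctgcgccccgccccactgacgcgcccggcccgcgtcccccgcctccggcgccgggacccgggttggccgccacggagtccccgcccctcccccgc

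Sat1: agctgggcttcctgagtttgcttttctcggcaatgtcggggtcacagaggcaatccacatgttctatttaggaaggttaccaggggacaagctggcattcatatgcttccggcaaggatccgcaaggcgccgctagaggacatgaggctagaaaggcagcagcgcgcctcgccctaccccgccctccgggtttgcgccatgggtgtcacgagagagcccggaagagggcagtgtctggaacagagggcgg

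Sms start 1: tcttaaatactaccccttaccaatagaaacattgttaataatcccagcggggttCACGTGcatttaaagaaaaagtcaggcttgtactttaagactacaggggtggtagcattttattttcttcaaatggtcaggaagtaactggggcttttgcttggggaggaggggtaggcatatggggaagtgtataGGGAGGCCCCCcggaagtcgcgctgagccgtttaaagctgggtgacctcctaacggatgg

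Sms start 2: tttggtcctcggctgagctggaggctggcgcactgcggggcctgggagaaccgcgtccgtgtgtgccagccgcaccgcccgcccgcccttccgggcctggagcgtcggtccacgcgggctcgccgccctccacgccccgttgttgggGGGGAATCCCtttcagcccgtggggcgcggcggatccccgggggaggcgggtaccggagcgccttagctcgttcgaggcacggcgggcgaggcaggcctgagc

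Ass1: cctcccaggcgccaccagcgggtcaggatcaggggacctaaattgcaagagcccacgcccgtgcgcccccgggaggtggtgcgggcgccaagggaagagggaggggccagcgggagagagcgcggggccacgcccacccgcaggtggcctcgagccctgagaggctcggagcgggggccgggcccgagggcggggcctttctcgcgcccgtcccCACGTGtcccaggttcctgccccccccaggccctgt

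The motifs, searched on both strands, were the TATA box TATAAA, held by 12.4% of the 32851 promoter windows of this length, the E-box CACGTG (6.02%), the palindrome TTCNNNNGAA bound by STAT6-type factors (5.85%), the hypoxia element core ACGTG (16.6%) and the NF-kB consensus (7.25%). The capitals in Ass1 are an E-box at positions -36 to -31 from the RefSeq start, which contains the hypoxia core on both strands. This E-box lies downstream of the GENCODE start of Ass1. Sms held an E-box, again with the hypoxia core, at positions -196 to -191 from start 1. It held the NF-kB consensus before both starts, as overlapping matches from -60 to -50 at start 1 and as 1 match from -103 to -94 at start 2. Odc1 and Sat1 had no match to the 5 motifs in this window. The Odc1 window was 80.0% G and C and the Ass1 window 75.6%, against a median of 52.4% over all windows, the Sat1 window 59.6% and the Sms windows 47.2% and 75.2%.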

How the data were processed

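The authors deposited 1 table of TPM for 12 poly-A selected, strand-specific libraries, each summing to 1000000 over 14098 genes. The submitters' processing notes name Trim Galore 0.6.7, Salmon 1.4.0 and mm10, while the paper's methods describe STAR, featureCounts and DESeq, so how the TPM were made is not settled. The annotation is not given in the sources used here. Salmon shares reads that fit several transcripts between them, and unique-read counting drops them, which bears on genes with close copies. TPM keeps no depth, so no counting error is given and count models were not used.

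The 11194 genes that reached 1 TPM in 2 or more libraries were tested on log2(TPM + 1), a scale that understates changes of low genes, with limma 3.58.1 in R 4.3.3: group means of all 12 libraries, eBayes with a trend, and Benjamini-Hochberg adjustment within each of the 12 comparisons. Called (DE) genes passed an adjusted p of 0.05 and changed by 1 or more on the log2 scale. The labels name biological replicates but no animals, so p-values measure the spread between these libraries. Both IL-4 libraries of each genotype are labelled "Soft 1", so whether they share 1 culture is not known. Groups came from the sample labels. The members, pathway lists and markers were chosen with earlier results of these data known. Named were all members, every DE gene of the other pathway lists up to the 3 with the largest change per comparison, and the 5 genes most like Arg1 and 3 most like each other member. Slc7a1, Eif5a, Gm5424, AW146154, Amd1 and Amd2 are not named by this rule and were picked once their values had been seen, as were the genes of the closing section. Gm26584 and Vti1b are named for the sequence they share with a member. Pycr3 was matched as Pycrl by its RefSeq synonym. Of the symbols, 13544 were in GENCODE vM21 (GRCm38). Copies were sought with BLAST+ 2.17.0, and figures were drawn with matplotlib 3.10.9. The code was tested on simulated data. Alternatives were a pseudocount of 0.1, no filter, median-of-ratios scaling, only the groups compared, robust eBayes, a replicate block, adjusted p under 0.1, a fold minimum of 2 on the log2 scale or none, each library left out, and the 3 libraries contrary at Camkk2 left out. Ass1 summed with Gm5424 was added after seeing the data.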

Additional observations from a re-analysis of the deposited data

How the results depend on the processing

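Of 1840 member values under alternatives, 96 had the opposite sign to the value reported, none of them of a called member, and 59 lost and 29 gained a call. Counts of called members changed by over 1.5 times as follows, with the count over all genes in parentheses. In WT with IL-4 against soft, the 2 (421) became 1 with no filter (387), median-of-ratios scaling (406), a fold minimum of 2 (84) and without any 1 library, 4 with only the groups compared (523), and 0 without the 3 libraries contrary at Camkk2 (106). In WT stiff against soft, the 3 (444) became 0 with only the groups compared (0) and without the 3 libraries (131), 5 with no fold minimum (1186), and 1 to 4 without 1 library. They became 2 with no filter, robust eBayes or a fold minimum of 2. In KO with IL-4, the 1 (409) became 2 with only the groups compared (519) or no fold minimum (1151), 0 without the 3 libraries (181), and 0 to 1 without 1 library. Averaged over genotypes, the 3 of IL-4 (487) became 6 with no fold minimum (2567), 1 without the 3 libraries (363), and 1 to 3 without 1 library. They became 4 with a pseudocount of 0.1, and 2 with no filter, robust eBayes or a fold minimum of 2. The 2 of stiff against soft, Arg1 (5.48, adjusted p = 0.0459 in limma) and Slc7a2 (3.11, adjusted p = 0.00224), called beside 151 genes in all, became 1 with no filter (135), median-of-ratios scaling (141), only the groups compared (104) or robust eBayes (146), 0 without the 3 libraries (47), and 1 to 4 without 1 library. In KO against WT stiff, the 1 (222) became 0 with only the groups compared (0) and without the 3 libraries (20), 2 with an adjusted p under 0.1 (281) or no fold minimum (552), and 0 to 4 without 1 library. For WT stiff against WT soft+IL-4 the 0 became 0 to 5, and for the interaction with stiffness 0 to 4, without 1 library. Apart from what the left-out libraries and thresholds themselves change, the cause was not tested. A library left out leaves 1 in its group, which is assumed to vary like the others.

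Same-numbered libraries deviated together (r over 0.1) in 3 of 15 pairs of groups, so the numbers were not taken as pairs. These 3, at 0.28 to 0.31, were the pairs among WT soft, KO soft and KO stiff, the groups that hold the libraries contrary at Camkk2. In each of them Camkk2 was higher in replicate 1, at 44.2 against 11.7 TPM in WT soft, 46.6 against 11.5 TPM in KO soft and 37.7 against 10.0 TPM in KO stiff. The share of genes listed at 0 was also higher in replicate 1 of every group. A difference shared by libraries of the same number is thus present, and its source was not tested. The other pairs lay from -0.05 to 0.09. With the replicate block, the count in WT with IL-4 went from 2 to 1, as Srm had an adjusted p of 0.0505 in limma, and no other count of called members changed.

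Median-of-ratios scaling changed TPM by at most 5.92%. The unknown depth limits Nos2 and Arg2, which lay under 5 TPM in all libraries.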

Other observations

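Some further genes of the pathway, chosen because of their values in WT stiff 1, lay there outside the range of the other libraries. Others did not, such as Azin1, at 40.1 TPM in WT stiff 1 and 39.0 to 46.4 TPM elsewhere. The share of all genes that lay as far apart in WT stiff 1 was not counted. Smox, which oxidises spermine back to spermidine, was at 98.1 TPM there and at 39.7 to 61.5 TPM in the other 11. Ddah2, which clears an inhibitor of nitric oxide synthase, was at 15.5 TPM against 1.70 to 8.36 TPM, and Ckb, the cytosolic creatine kinase, at 250 TPM against 490 to 815 TPM. In WT stiff against WT soft, Smox had a log2 fold change of 0.12 (adjusted p = 0.856 in limma), and WT stiff 2 lay at 41.3 TPM, below both WT soft values. Of the 45 other pathway genes tested, 1 passed the p threshold for the interaction of genotype with stiffness. It was the lysosomal polyamine exporter Atp13a2, at 0.70 (SE 0.13, adjusted p = 0.0445 in limma), under the fold minimum of 1. At an unadjusted p under 0.05 in limma there were 6 of the 45, beside 1219 of all 11194 genes. The 3 libraries contrary at Camkk2 are part of this comparison.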
